A study of Mus musculus with 8 samples.

Results

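The SLC4 family of bicarbonate transporters comprises 10 genes of the mouse, Slc4a1 to Slc4a5 and Slc4a7 to Slc4a11, which were found by symbol among the 47729 genes of an RNA-seq study of the young kidney. Whole kidneys were taken on postnatal day 8 from Six2Cre+KCTD1fl/fl mice, labelled as a nephron-specific Kctd1 knockout, and from control littermates, labelled wildtype, with 4 libraries of total RNA in each group. Cre driven by Six2 acts in nephron progenitors, so the tubule from Bowman's capsule to the connecting segment descends from recombined cells, whereas collecting duct, vessels, stroma and blood do not. Which alleles the controls carried, how many animals each library stands for and their sex are not stated in the labels, so a p-value here reflects only how far these libraries spread. The family was chosen by the measured difference of Slc4a11, which was among the genes past the threshold in this same comparison. The change of Slc4a11 is therefore a description with no test, and the other 9 members enter by name.

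SLC4 proteins carry bicarbonate or carbonate across the plasma membrane, in exchange for chloride or together with sodium. In the kidney they form most of the basolateral exit for reclaimed bicarbonate in the proximal tubule and for newly made bicarbonate in acid-secreting intercalated cells. Slc4a11 is the most distant member and is known for moving water, protons and ammonia rather than bicarbonate. It is found in the thin descending limb of the loop of Henle and in the corneal endothelium.

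Promoter windows of RefSeq (GRCm38.p6), 250 bases before and 50 after an annotated start, were at hand for 7 of the 10 members, and no entry was used for Slc4a1, Slc4a9 and Slc4a11. Both windows of Slc4a4 are shown because this gene, the main sodium bicarbonate cotransporter of the proximal tubule, starts from an upstream promoter and from an internal one that is known to give the kidney variant. Capitals mark CG dinucleotides, and both windows lie on the plus strand of chromosome 5.
Slc4a4 upstream window, chr5:88887010-88887309: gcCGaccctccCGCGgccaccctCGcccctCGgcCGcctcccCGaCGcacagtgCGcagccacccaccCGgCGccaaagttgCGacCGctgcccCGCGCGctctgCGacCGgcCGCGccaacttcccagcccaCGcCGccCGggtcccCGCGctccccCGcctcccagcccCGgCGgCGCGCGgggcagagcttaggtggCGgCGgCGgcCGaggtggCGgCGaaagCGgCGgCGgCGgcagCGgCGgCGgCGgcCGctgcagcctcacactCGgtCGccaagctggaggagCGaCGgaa
Slc4a4 internal window, chr5:89027716-89028015: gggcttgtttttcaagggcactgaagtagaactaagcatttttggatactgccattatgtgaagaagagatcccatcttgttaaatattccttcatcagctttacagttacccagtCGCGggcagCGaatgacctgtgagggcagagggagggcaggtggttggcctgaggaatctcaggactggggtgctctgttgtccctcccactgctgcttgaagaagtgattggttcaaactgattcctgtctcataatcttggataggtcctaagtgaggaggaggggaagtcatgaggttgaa
The upstream window held 50 CG dinucleotides and the internal one 3, against a median of 7 over all 32851 windows of the table. The deposited values give 1 total per gene, so the use of the 2 starts could not be read from them.

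The upstream window of Slc4a2 is shown because it was the 1 window of 10 with a match to GCCNNNGGC, the palindromic motif bound by AP-2 factors, which the KCTD1 protein is known to repress. The motif reads the same on both strands, was searched without other motifs, and stands in capitals in this plus-strand window.
Slc4a2 upstream window, chr5:24424982-24425281: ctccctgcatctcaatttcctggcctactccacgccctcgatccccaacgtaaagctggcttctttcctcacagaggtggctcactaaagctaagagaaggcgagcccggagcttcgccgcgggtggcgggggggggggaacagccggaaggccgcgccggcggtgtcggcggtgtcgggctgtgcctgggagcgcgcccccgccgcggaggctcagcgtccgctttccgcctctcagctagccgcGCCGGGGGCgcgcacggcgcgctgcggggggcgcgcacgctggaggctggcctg
The match begins at position 247 of the window, in which the start is position 251. Of all 32851 windows of this length, 16.6% held a match, so 1 in 10 windows is a description of these letters and not of AP-2 binding. Slc4a2 itself did not pass the test of knockout against wildtype, as given further on.

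Counts per library summed to 14457760 to 20741076, of which the 10 SLC4 genes took 9565 to 15493. Levels between genes are given as TPM, which are scaled by transcript length to a fixed total per library. Levels between libraries are given as CPM, counts scaled to library size with TMM factors, because 24 rows, short ribosomal and small nuclear RNA genes among them, with over 1000 TPM in some library and more than 4 times their lowest library, took 38.2% of the TPM of knockout 2 and 15.2% of that of knockout 1, against 4.02% to 8.90% in the other 6 libraries. Knockout 2 and wildtype 3 also held Xist counts of 81994 and 101295, against at most 151 elsewhere. Kctd1 measured 22.4 to 25.8 CPM in knockout and 28.9 to 32.6 CPM in wildtype, without overlap, and did not pass over all genes (adjusted p = 0.279, Benjamini-Hochberg, edgeR's quasi-likelihood test). Summed markers of the proximal tubule ran from 3935 to 4160 CPM in knockout and from 3865 to 4079 CPM in wildtype. Markers of neurons summed to at most 12.3 CPM, of the adrenal gland to at most 14.3 CPM and of skeletal muscle to at most 3.52 CPM in any library.

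Slc4a11 (ENSMUSG00000074796, chromosome 2 from 130684113 to 130697519, GRCm38, minus strand, 14 merged exons) was lower in every knockout library than in every wildtype library. The CPM were 31.0, 39.6, 34.1 and 30.1 in knockout 1 to 4, against 55.8, 56.3, 60.6 and 68.0 in wildtype 1 to 4. The gap between the nearest libraries, knockout 2 and wildtype 1, was 16.2 CPM, larger than the SD of either group. Mean levels were 33.7 ± 4.32 against 60.2 ± 5.65 CPM (SD, n = 4 each), a 1.79-fold lower level in knockout with a log2 fold change of -0.84 ± 0.11 (SE). It was the 1 member of 10 past the threshold with edgeR's quasi-likelihood test and with DESeq2, where 0.0809% of 18548 genes passed in either direction with edgeR, 0.0485% as lower, and 0.86% of 18021 genes with DESeq2. Across all genes tested, 4.03% had groups that did not overlap, 2.06% with knockout lower. Because the comparison picked the gene, nothing is read from these counts.

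Refits use the same libraries that picked the gene and are a description. The size of the Slc4a11 difference moved little between fits, while its place relative to the threshold moved. Leaving out knockout 1, knockout 4, wildtype 2 or wildtype 3 left its adjusted p above the threshold of 0.05, at log2 fold changes of -0.80, -0.79, -0.87 and -0.83. Without the 2 libraries with Xist reads the value was -0.92, and without knockout 1 and knockout 2, the libraries richest in ribosomal signal, -0.91, and neither passed. In bulk tissue fewer cells of a type and less RNA per cell cannot be told apart.

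Markers of the segments around Slc4a11 did not all move with it. The 8 thin limb markers summed to 587 to 774 CPM in knockout and 655.5 to 730.7 CPM in wildtype, so the groups overlapped, and none of the markers was at 0. Their median log2 fold change was -0.18, beside 0.0012 for all genes tested. With edgeR 0 of the 8 passed. The unadjusted edgeR p was under 0.05 for 1 marker with a positive and 3 with negative values, and 1 was called lower by DESeq2. Over all genes 6.18% had such an unadjusted p, 3.11% higher and 3.08% lower, while 0.0809% passed with edgeR and 0.86% with DESeq2. Aqp1, the water channel of the proximal tubule and descending limb, stood at 399.7 ± 41.8 CPM in knockout against 396.0 ± 16.7 in wildtype. The 6 markers of the distal convoluted tubule summed to 425.5 to 497.3 CPM in knockout and 774 to 843 CPM in wildtype, and the 5 podocyte markers to 724 to 918 and 976 to 1163 CPM, neither with overlap and none of them at 0. Their part in the Slc4a11 result was not tested.

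**Figure D1:**
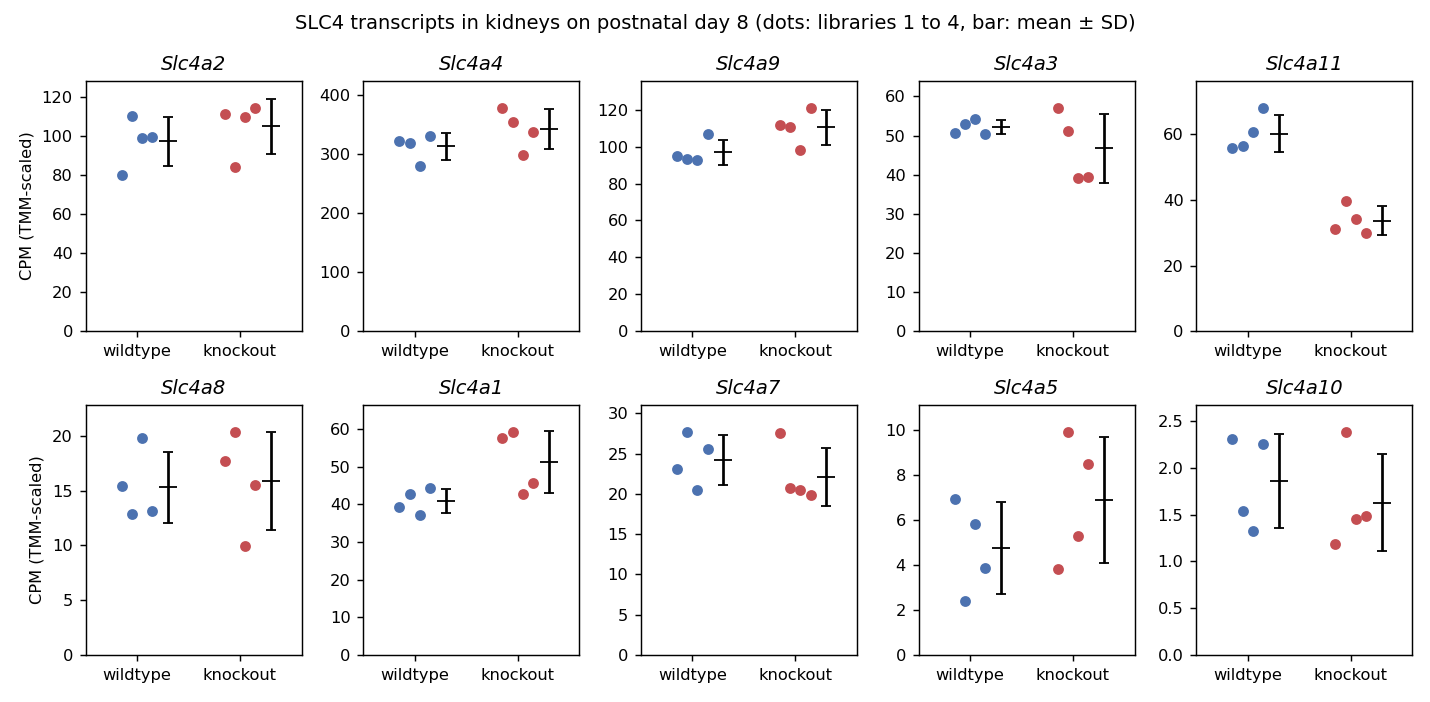
TMM-scaled CPM of each SLC4 gene in every library, with 4 wildtype and 4 knockout dots per panel and the mean ± SD beside them; each vertical axis starts at 0 and has its own range. Slc4a11 is the panel in which the groups separate, with knockout libraries at 30.1 to 39.6 and wildtype libraries at 55.8 to 68.0.

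The anion exchangers Slc4a1, Slc4a2 and Slc4a3 swap chloride for bicarbonate without sodium. Slc4a1 (ENSMUSG00000006574, chromosome 11 from 102348824 to 102366203, minus strand) encodes band 3 of red cells and, from a shorter transcript, the basolateral exchanger of type A intercalated cells. The CPM were 57.5, 59.3, 42.8 and 45.7 in knockout 1 to 4, against 39.3, 42.6, 37.1 and 44.2 in wildtype 1 to 4. Knockout 1 and knockout 2 stood above all other libraries, and knockout 3 lay inside the wildtype range, so the groups overlapped. The log2 fold change was 0.33 ± 0.12 (SE), which did not pass (adjusted p = 0.664, Benjamini-Hochberg, edgeR's quasi-likelihood test). It was 0.25 without knockout 2, 0.27 without knockout 1 and 0.12 ± 0.10 without both.

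The values beside Slc4a1 followed its order over the libraries only in part. Summed markers of red cells, led by the globin genes, measured 2642, 2241, 3015 and 3115 CPM in knockout 1 to 4. In wildtype 1 to 4 they measured 2474, 2179, 3013 and 2293 CPM. Summed markers of intercalated cells measured 656, 668, 700 and 757 CPM in knockout 1 to 4 and 663 to 699 CPM in wildtype. Among the knockouts, the 2 libraries with the most Slc4a1 had the lower sums of either marker list. They also had the largest share of TPM on the uneven rows. Summed membrane partners of band 3 were instead highest in those 2 among the knockouts, at 290.8, 261.4, 228.2 and 234.6 CPM in knockout 1 to 4. In wildtype 1 to 4 these partners summed to 275.7, 275.4, 244.6 and 258.7 CPM. Within wildtype, Slc4a1 and the intercalated sum were both lowest in wildtype 3 and highest in wildtype 4, whereas the red cell sum was highest in wildtype 3. None of the red cell or intercalated markers found was at 0 in all libraries, and the part of either cell type or of the uneven rows was not tested. Of the 10 intercalated cell markers 6 had log2 fold changes above 0 and 4 below, with a median of 0.07. With edgeR and with DESeq2 0 passed, where 0.0809% and 0.86% of all genes did. At an unadjusted edgeR p under 0.05 there was 1 in each direction, where 3.11% of all genes were higher and 3.08% lower.

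**Figure D2:**
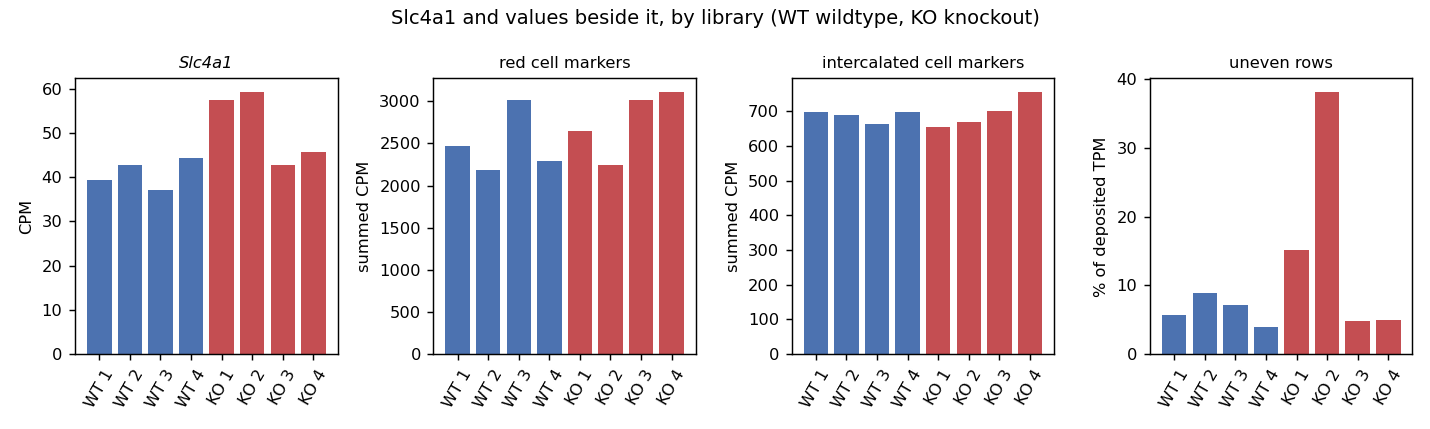
Slc4a1 in CPM, the summed CPM of red cell and of intercalated cell markers, and the percent of deposited TPM on the 24 uneven rows, as bars from 0 for wildtype 1 to 4 (blue) and knockout 1 to 4 (red). The tallest Slc4a1 bars, knockout 1 and knockout 2 at 57.5 and 59.3 CPM, are also the tallest bars of the uneven rows at 15.2% and 38.2%.

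Slc4a2 (ENSMUSG00000028962, chromosome 5 from 24423837 to 24440950, plus strand), the widely expressed exchanger of basolateral membranes, had CPM of 112, 84.4, 109.8 and 115 in knockout 1 to 4, against 80.1, 111, 99.2 and 99.8 in wildtype 1 to 4. Its groups overlapped almost entirely, with 1 low library in each, and the log2 fold change of 0.11 ± 0.12 did not pass (adjusted p = 0.942, Benjamini-Hochberg, edgeR's quasi-likelihood test). It was 0.03 without wildtype 1 and 0.20 without knockout 2. Fastk overlaps Slc4a2 on the opposite strand. The libraries were made with a directional kit, but whether the counting used strand is not stated in the labels. Slc4a3 (ENSMUSG00000006576, chromosome 1 from 75546266 to 75562172, plus strand) encodes the exchanger best known from heart and brain. The CPM were 57.1, 51.2, 39.2 and 39.5 in knockout, against 50.7, 53.0, 54.2 and 50.4 in wildtype. The wildtype libraries lay close together, at an SD of 1.81 CPM, whereas the knockout libraries had an SD of 8.86 and lay both above and below them. The log2 fold change was -0.16 ± 0.12 (adjusted p = 0.924, Benjamini-Hochberg, edgeR's quasi-likelihood test). It was -0.08 without knockout 3 and without knockout 4, -0.27 without knockout 1, and -0.41 without knockout 1 and knockout 2 together.

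The sodium bicarbonate cotransporters differed widely in level. Slc4a4 (ENSMUSG00000060961, chromosome 5 from 88886818 to 89239653, plus strand), whose protein returns reclaimed bicarbonate from the proximal tubule to the blood, had the most counts of the family. The CPM were 378, 355, 299 and 336 in knockout 1 to 4, against 322, 319, 279 and 331 in wildtype 1 to 4. The means of 341.9 ± 33.5 and 312.6 ± 23.1 CPM differed by less than the SD of the knockout group, at a log2 fold change of 0.13 ± 0.09 (adjusted p = 0.908, Benjamini-Hochberg, edgeR's quasi-likelihood test). It was 0.08 without knockout 1 or without wildtype 3, and 0.19 without knockout 3. Proximal tubule markers beside it overlapped between the groups, as given above.

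The other cotransporters and the sodium-driven exchanger had lower CPM than the members above. By mean TPM Slc4a8 nevertheless stood above Slc4a1, as given further on. Slc4a5 (chromosome 6 from 83219828 to 83304945, plus strand), a second electrogenic cotransporter known from choroid plexus, ranged from 3.84 to 9.95 CPM in knockout and from 2.41 to 6.94 CPM in wildtype. Slc4a7 (chromosome 14 from 14702279 to 14799940, plus strand), the electroneutral cotransporter of the thick ascending limb, ranged from 19.8 to 27.5 and from 20.4 to 27.7 CPM. Slc4a10 (chromosome 2 from 62046462 to 62326730, plus strand), known from neurons and choroid plexus, stayed between 1.19 and 2.39 CPM in every library. Slc4a8 (chromosome 15 from 100761747 to 100823968, plus strand), the sodium-driven chloride bicarbonate exchanger of type B intercalated cells, ranged from 9.93 to 20.4 CPM in knockout and from 12.9 to 19.8 CPM in wildtype. The groups overlapped for all 4 genes. Their log2 fold changes were 0.54 ± 0.37 for Slc4a5, -0.13 ± 0.14 for Slc4a7, -0.18 ± 0.31 for Slc4a10 and 0.05 ± 0.22 for Slc4a8, with adjusted p from 0.908 to 0.989 (edgeR's quasi-likelihood test, Benjamini-Hochberg). Slc4a5 and Slc4a10, with 19 to 179 counts per library, had the widest standard errors of the family. Leaving out 1 library at a time gave 0.31 (without knockout 2) to 0.77 (without wildtype 1) for Slc4a5, -0.25 (without knockout 1) to -0.06 (without wildtype 2) for Slc4a7, -0.43 (without knockout 2) to -0.06 (without knockout 1) for Slc4a10, and -0.09 (without knockout 2) to 0.22 (without knockout 3) for Slc4a8.

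Slc4a9 (ENSMUSG00000024485, chromosome 18 from 36528147 to 36556273, plus strand) encodes a basolateral transporter of type B intercalated cells and lies on the chromosome of Kctd1, 21376701 bases from that gene. The CPM were 112, 111, 98.2 and 121 in knockout 1 to 4, against 95.1, 93.4, 92.5 and 107 in wildtype 1 to 4. Wildtype 4 lay above knockout 3, and the other knockout libraries lay above every wildtype library. Mean levels were 110.5 ± 9.37 against 97.0 ± 6.77 CPM (SD, n = 4 each), a log2 fold change of 0.19 ± 0.08 that did not pass (adjusted p = 0.790, Benjamini-Hochberg, edgeR's quasi-likelihood test). The 4 markers of type B cells, pendrin among them, summed to 133 to 147 CPM in knockout and 118 to 139.5 CPM in wildtype, with overlap, and their part was not tested.

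**Figure D3:**
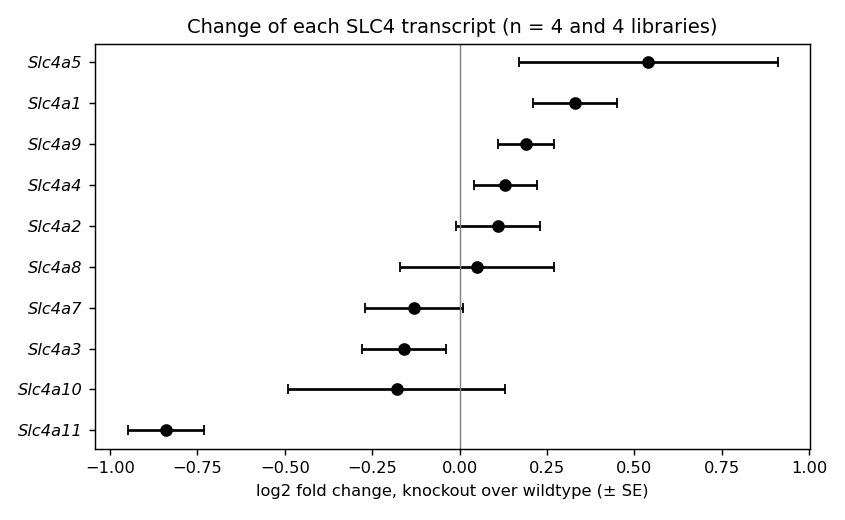
Log2 fold change of knockout over wildtype for the 10 SLC4 genes, ordered by value, with bars of 1 SE from edgeR and a line at 0. Slc4a11 lies apart at -0.84, and the other 9 range from -0.18 for Slc4a10 to 0.54 for Slc4a5.

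In all, 6 members had log2 fold changes above 0 and 4 below, and the median was 0.08 for the 10 and 0.11 for the 9 other than Slc4a11, beside 0.0012 for all genes tested. All 10 passed the filter on low counts. At an unadjusted p under 0.05 edgeR placed 2 members higher, Slc4a1 and Slc4a9, and 1 lower, Slc4a11, where 6.18% of all genes tested had such a p, 3.11% higher and 3.08% lower. With 10 members this count is a description.

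Per unit length the order of the members differed from their counts. By mean TPM over the 8 libraries Slc4a2 stood first at 33.6 ± 6.13 TPM (SD, n = 8), then Slc4a4 at 22.7 ± 2.76, Slc4a9 at 19.5 ± 2.74, Slc4a3 at 10.5 ± 1.72 and Slc4a11 at 8.31 ± 3.10 TPM. Below them came Slc4a8 at 6.83, Slc4a1 at 5.48, Slc4a7 at 1.57, Slc4a5 at 0.909 and Slc4a10 at 0.166 TPM. Within a library the first 3 kept their order in 8 of 8 libraries, and so did Slc4a9 above Slc4a3, Slc4a1 above Slc4a7 and Slc4a5 above Slc4a10. Slc4a3 exceeded Slc4a11 in 7 of 8 libraries, Slc4a11 exceeded Slc4a8 in 5, Slc4a8 exceeded Slc4a1 in 7 and Slc4a7 exceeded Slc4a5 in 6, so these neighbours did not keep a fixed order. Slc4a11 had rank 5 by its wildtype mean of 11.1 ± 1.47 TPM and rank 7 by its knockout mean of 5.56 ± 0.268 TPM.

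As a share of the summed TPM of the family, which does not depend on the scale of a library, Slc4a11 made up 9.61%, 8.92%, 9.88% and 10.6% in wildtype 1 to 4 and 4.55%, 6.28%, 5.87% and 4.67% in knockout 1 to 4. Slc4a2, Slc4a4 and Slc4a9 together made up 64.8% to 68.9% in wildtype and 66.4% to 74.4% in knockout. Slc4a1 held 4.16% to 4.73% in wildtype and 4.87% to 6.45% in knockout, also without overlap, whereas its groups overlapped in CPM. Shares add up to a fixed total, so the lower share of Slc4a11 raises the others. The intervals of counting error are not given for these shares, since TPM carry no depth.

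**Figure D4:**
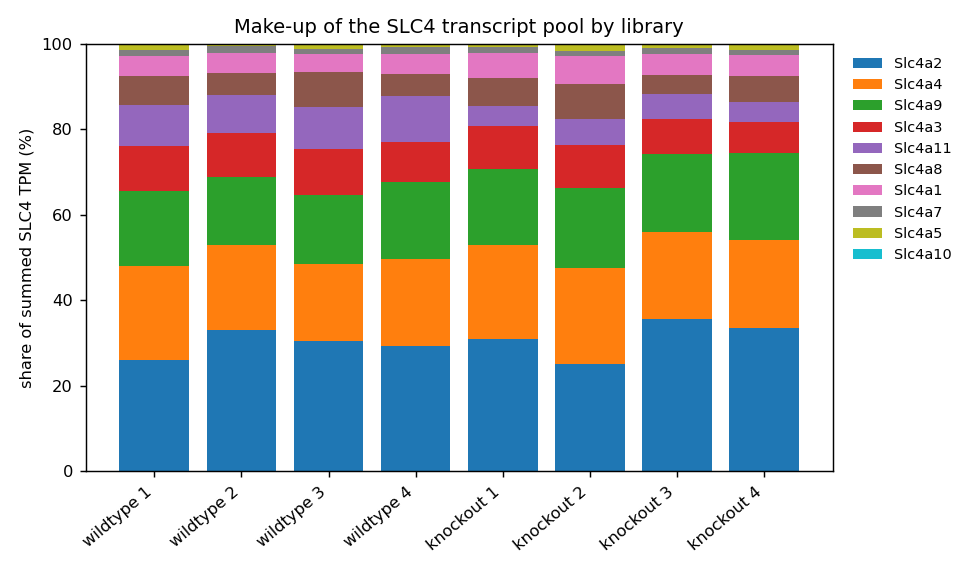
Stacked bars of each gene's share of the summed SLC4 TPM in percent, for wildtype 1 to 4 and knockout 1 to 4. The Slc4a11 segment is 8.92% to 10.6% tall in wildtype and 4.55% to 6.28% tall in knockout, while Slc4a2, Slc4a4 and Slc4a9 fill most of every bar.

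The order of the most abundant members depended on how length was counted. The ratio of count to TPM, set against 517 coding genes with 1 annotated transcript, implied a mean transcript length of 1584 bases for Slc4a2 and 1185 for Slc4a8, although their annotated exons together cover 8322 and 13021 bases. For Slc4a4 the same ratio implied 7542 bases of 10815, and for Slc4a1 4354 of 4891. What lies behind these implied lengths was not tested. By CPM per kilobase of merged annotated exons Slc4a4 came first at 30.3 ± 2.85, then Slc4a9 at 16.2 ± 1.63, Slc4a2 at 12.2 ± 1.56 and Slc4a1 at 9.42 ± 1.65 (SD, n = 8). Slc4a11 followed at 9.39 and Slc4a3 at 5.75, and Slc4a8 stood at 1.20. For the 8 members with at least 50 counts in each library count over TPM, as log2, varied by an SD of at most 0.0018 over libraries, so no shift between transcripts could be read from these tables.

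Genes with a profile nearest to Slc4a11 were found by the root mean square difference of log2 CPM over the 8 libraries, each profile centred on its own mean, among 16874 other genes with a mean of at least 1 CPM. The nearest were Rhpn1 at 0.121, Zcchc12 at 0.143, Sall3 at 0.144, Slamf9 at 0.149 and Myl3 at 0.156, where the median gene differed by 0.478. Rhpn1, known from podocytes, had 35.8 ± 2.49 CPM in knockout against 60.2 ± 3.85 in wildtype. Sall3, a zinc finger transcription factor, measured 6.75 ± 0.225 and 12.7 ± 1.40 CPM. Nearness here follows mostly from a like difference between the groups, since Slc4a11 itself falls into them, and with 8 libraries it is a description. For Slc4a1 the nearest genes were Sos2 at 0.036, Cdh6 at 0.075, Gm22662 at 0.076, Kdm2a at 0.077 and Etfbkmt at 0.083, where the median gene differed by 0.299. None of these 5 belongs to the lists of red cell or intercalated cell genes. Those lists hold 13 and 10 genes found, beside 16874 searched, so nothing is read from this.

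Carbonic anhydrases, which make the bicarbonate that SLC4 proteins move, did not pass as single genes. Of 16 listed genes 13 were tested, and with edgeR and with DESeq2 0 passed, where 0.0809% and 0.86% of all genes did. At an unadjusted edgeR p under 0.05 there were 2 with positive and 1 with negative values, where 6.18% of all genes had such a p. Their median log2 fold change was 0.14. Car2, the cytosolic enzyme of proximal tubule and intercalated cells, stood at 235.0 ± 19.9 CPM in knockout against 232.7 ± 14.9 in wildtype. Car4, on the apical membrane of the proximal tubule, measured 60.2 ± 6.51 and 61.2 ± 4.35 CPM. Car12, a membrane enzyme facing outward, stood at 367.5 ± 2.70 against 318.1 ± 24.8 CPM, and its groups did not overlap (log2 fold change 0.21 ± 0.07 with an adjusted p = 0.588, Benjamini-Hochberg, edgeR's quasi-likelihood test). The groups of Car15, a membrane-bound enzyme, did not overlap either, at 81.9 to 102.5 CPM in knockout and 105.0 to 111.9 in wildtype. Its log2 fold change was -0.23 ± 0.09 with an adjusted p = 0.7 (Benjamini-Hochberg, edgeR's quasi-likelihood test). Over all genes tested 4.03% had groups that did not overlap, so nothing is read from these separations.

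The SLC26 transporters form the other large family of anion exchangers. Of 11 genes 8 were tested, with edgeR and DESeq2 0 passed and 0 had an unadjusted edgeR p under 0.05, and the median was 0.06. Its most abundant members by TPM were Slc26a6, the apical exchanger of the proximal tubule, at 14.9 ± 0.768 CPM in knockout and 16.4 ± 3.77 CPM in wildtype, Slc26a4, which encodes pendrin, at 63.3 ± 8.79 and 60.5 ± 3.19 CPM, and Slc26a1, a basolateral sulfate transporter, at 70.3 ± 8.20 and 61.2 ± 7.07 CPM. Of 11 sodium-proton exchangers, which supply the protons for bicarbonate reclamation, 10 were tested. Among them 0 passed with edgeR or DESeq2, 0 had an unadjusted edgeR p under 0.05, and the median was -0.06. Slc9a8 had the highest TPM of the list. It ranged from 42.7 to 59.0 CPM in knockout and from 48.8 to 59.5 in wildtype, with overlap.

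Regulators of SLC4 transport and acid-base sensors gave no edgeR call. Of 13 listed symbols 12 were found, the missing one being an older name of Adgrf5, which was found itself, and 11 genes were tested. With edgeR 0 passed, 2 had negative values with an unadjusted p under 0.05, and 1 was called lower by DESeq2, where 3.08% of all genes were lower at such a p and DESeq2 called 0.86% in either direction. The list had a median of 0.08. Wnk4, a kinase that acts on chloride and bicarbonate transport in the distal nephron, ranged from 138.8 to 166.6 CPM in knockout and from 189.6 to 242.2 in wildtype and was the gene called by DESeq2. Wnk1, its widely expressed relative, stood at 420.1 ± 52.2 and 473.8 ± 18.2 CPM, and Ahcyl2, a relative of the protein that activates Slc4a4, at 116.7 ± 26.2 and 91.9 ± 36.7 CPM. Both overlapped between the groups. Stk39, the kinase downstream of the WNK proteins, was the other of the 2 with negative values, at 46.3 ± 8.63 and 58.3 ± 3.39 CPM.

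Partners of band 3 in the red cell membrane gave no call. Of 12 genes 11 were tested, 0 passed with edgeR or DESeq2, 0 had an unadjusted edgeR p under 0.05, and the median was -0.02. Epb41, Dmtn and Gypc, cytoskeletal and membrane proteins of red cells, had the highest TPM, and their groups overlapped. The 6 genes of water, urea and osmolyte handling around the thin limb had a median of -0.02, and 0 passed with edgeR. At an unadjusted edgeR p under 0.05 there was 1 gene in each direction, where 3.11% of all genes were higher and 3.08% lower. DESeq2 called 1 in each direction, where 0.86% of all genes passed. The higher one in both was Slc5a3, the sodium-coupled inositol transporter (133.6 to 172.6 CPM in knockout, 100.7 to 111.2 in wildtype). Akr1b3, the aldose reductase that makes sorbitol, ranged from 150.3 to 388.1 CPM in knockout and from 253.1 to 357.5 in wildtype, and Slc6a6, a taurine transporter, from 154.3 to 227.2 and from 161.8 to 224.5 CPM.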

How the data were processed

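Per the submitters' processing notes the authors used Salmon, with no version given, DESeq2 1.14.1 and the mm10 build; no annotation release is stated. Gene counts were deposited as whole numbers without gene names, and TPM, also deposited, carry Ensembl identifiers with symbols. Row by row, the 47729 counts were matched to the 47729 identifiers in the TPM file; among 13251 genes (at least 50 counts in each library) the count/TPM ratio, as log2, varied by an SD of at most 0.00862 over libraries, against a median of 0.281 when rows were shifted by 1. All columns were used. The members and lists were chosen with earlier results of these data known.

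Genes kept by filterByExpr (18548) were scaled with TMM and compared with edgeR 4.0.16 in R 4.3.3 (quasi-likelihood test, robust, genotype alone, two-sided), with Benjamini-Hochberg adjustment over all genes tested and a threshold of 0.05. The fit was tested on simulated counts. SE is the absolute log2 fold change over the square root of F. Marker sums are in CPM. Coordinates come from GENCODE M21 (GRCm38, which mm10 denotes). Of each list the 3 genes with the highest mean TPM, and others past the threshold, were named; Stk39, Slc5a3, Adgrf5 and Car15 were named after their values were seen, and some genes that the rule names are not reported here. Alternatives used DESeq2 1.42.0, limma 3.58.1 on log2(TPM + 1) and log2(TPM + 0.1), other scalings, filters and thresholds, a replicate block, and libraries left out.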

Additional observations from a re-analysis of the deposited data

Results flagged for a closer look

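In 5 of 84 sets of 4 values the highest or lowest library lay far outside the remaining ones; about 4.2 are due by chance (1 in 20). Slc4a2 in knockout was low in knockout 2, at 84.4 CPM against 109.8 to 114.6 in the others, with a gap of 0.843 of the range. Slc4a7 in knockout was high in knockout 1, at 27.5 CPM against 19.8 to 20.7 (gap 0.887 of the range). The Slc4a1 share of the family's TPM in wildtype was low in wildtype 3, at 4.16% against 4.64% to 4.73% (0.837). Thick ascending limb markers in knockout were high in knockout 1, at 2769 CPM against 2388 to 2426 (0.900), and smooth muscle and pericyte markers in wildtype were low in wildtype 4, at 660.3 CPM against 802.5 to 818.0 (0.902).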

How the results depend on the processing

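The number of SLC4 members past the threshold was 1, Slc4a11, and became 0 with the replicate number as a block, without the 2 libraries with Xist reads, and in 2 fits chosen after seeing the data, without knockout 1 and knockout 2 together and with limma on TPM rescaled without the uneven rows. Leaving out each library in turn gave 0 to 1. Slc4a11 passed in 11 of 19 alternatives, with log2 fold changes of -0.97 to -0.73. Its Benjamini-Hochberg adjusted p ran from 3.84e-09 (DESeq2) to 0.154 (limma on rescaled TPM). These alternatives reuse libraries that picked Slc4a11, so passing in them adds no support for it. Without knockout 1, knockout 4, wildtype 2 or wildtype 3 its edgeR adjusted p was 0.0732, 0.0671, 0.0602 and 0.0865. The 15 genes past the threshold over all genes became 27 with no filter, 155 with DESeq2, 6 with limma on log2(TPM + 1) and 6 on log2(TPM + 0.1), 3 without the 2 libraries with Xist reads, 9 without knockout 1 and knockout 2, 23 at a threshold of 0.1, and 10 to 52 leaving out each library in turn (29 without knockout 3, 52 without wildtype 4 and 10 without wildtype 3). Pathway list members past the threshold were 0, but 1 with no filter and 3 with DESeq2.

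With the replicate block edgeR called 10 genes, and Slc4a11 had an adjusted p of 0.130. Same-numbered libraries had correlations of deviations of -0.081 to 0.0363, so the numbers were not taken to pair the libraries. On the deposited TPM the median of all genes was -0.106 with log2(TPM + 1) and -0.141 with log2(TPM + 0.1), and directions that differed must be read against that shift: Slc4a2 became -0.03 and -0.04, Slc4a4 -0.02 and -0.02, and Slc4a8 -0.10 and -0.12. Slc4a1 kept its direction there, at 0.15 and 0.17. Slc4a8 also became -0.27 without knockout 1 and knockout 2, and ranged from -0.09 to 0.22 leaving out each library in turn. The order of members by level differed in 1 neighbouring pair in knockout 1, knockout 3 and wildtype 4, in 2 pairs in knockout 2 and knockout 4, and in 3 pairs by CPM per kilobase of exons. The cause of these differences was not tested.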
